A study of Homo sapiens with 6 samples.

Results

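The genes described here encode the kinetochore, the spindle checkpoint and the kinases that drive mitosis. They were chosen by symbol, 48 in number, from the 18278 genes of the deposited table, and all 48 had a row and passed the filter on low values. The RNA came from Toledo, a long-established human lymphoma line of the diffuse large B cell type, kept in suspension culture. The groups were 3 samples treated for 6 days with TP-064 at 5 uM and 3 samples kept for 6 days with the solvent DMSO. The compound TP-064 blocks CARM1, an arginine methyltransferase of histones and transcriptional coactivators. The study's title places the line in work on CARM1 inhibition in lymphomas with mutated CREBBP or EP300. Whether replicates were separate cultures is not stated in the labels. The p-values therefore cover only the spread between these samples, and that spread may be technical.

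At mitosis each chromosome carries a kinetochore, a protein assembly built on centromeric nucleosomes that hold the histone variant CENP-A. Its inner layer stays on the centromere, its outer layer grips microtubules, and a checkpoint that senses unattached kinetochores restrains the anaphase-promoting complex, a ubiquitin ligase that triggers chromosome separation. Transcripts of many of these proteins accumulate in late S phase and G2 and are low in cells that do not divide, and a short promoter element called the cell cycle genes homology region (CHR), read by the DREAM and MYB-MuvB complexes, is a known feature of such genes. RNA from a whole culture reports the average over its cells, so fewer cells in G2 and mitosis and less of the RNA in each such cell cannot be told apart here.

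The libraries held 41354131 to 48360867 reads over the listed genes. TP-064 replicate 3 stood apart on the second principal component, which held 11.6% of the variance, at -35.2 against 21.3 and 16.8 for TP-064 replicates 1 and 2 and -6.37 to 1.89 for the DMSO libraries. The B cell markers MS4A1, CD79A, CD79B and PAX5 were read in every library. MS4A1 had normalized read counts of 18335 to 20504 after TP-064 and 9853 to 10921 after DMSO, and CD79B had 35114 to 39095 after TP-064 and 45367 to 46348 after DMSO. Of 13 listed markers of T cells and of myeloid, epithelial and stromal cells, 6 were matched to a row. They summed to 301 to 327 normalized read counts after TP-064 and 369.9 to 409.6 after DMSO. Singly, TRAC and CSF1R rose, CD14, COL1A1 and PDGFRB fell, and LYZ did not pass the test. CSF1R, a myeloid marker, had the largest change of the 6, with 49.5 to 75.2 after TP-064 and 6.49 to 18.9 after DMSO, a log2 fold change of 2.35. TRAC, the only T cell marker matched, had 83.1 to 90.0 after TP-064 and 24.9 to 39.8 after DMSO. COL1A1, a stromal marker that made up most of the DMSO sum, had 135 to 137 after TP-064 and 273 to 305 after DMSO. None of the 6 was at 0 in any library. No row was matched to the other listed markers of these lineages. The part of these markers in the results was not tested.

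All 48 genes fell after TP-064. Each fold change is a difference of means, TP-064 minus DMSO, of log2(normalized read count + 1), and a gene was called at a limma adjusted p under 0.05. The median log2 fold change of the 48 genes was -1.76, against 0.01 for the 16048 genes tested, and lower calls made up 33.3% of those and higher calls 31.9%. A fall of at least 2-fold was found for 44 of the 48 genes, and for 6.56% of all tested genes, while 6.51% rose by at least 2-fold. In all 48 genes each TP-064 value lay below each DMSO value, a pattern present in 35.2% of all tested genes, with the reverse pattern in 33.9%. The exceptions to the fall of 2-fold were CENPC, MIS12, BUB3 and MAD1L1, at log2 fold changes of -0.39, -0.66, -0.96 and -0.39. The limma adjusted p of the 48 genes lay between 9.10e-15 for BUB1B and 5.03e-06 for CENPC. Ranked by log2 fold change, 41 of the 48 genes lay in the lowest 5% of tested genes. With libraries scaled to their totals alone, 61.5% of all calls were higher, against 48.9% otherwise, the median of all genes was 0.13 and that of the 48 genes -1.64, and CENPC and MAD1L1 stood at -0.26 and -0.27.

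**Figure D1:**
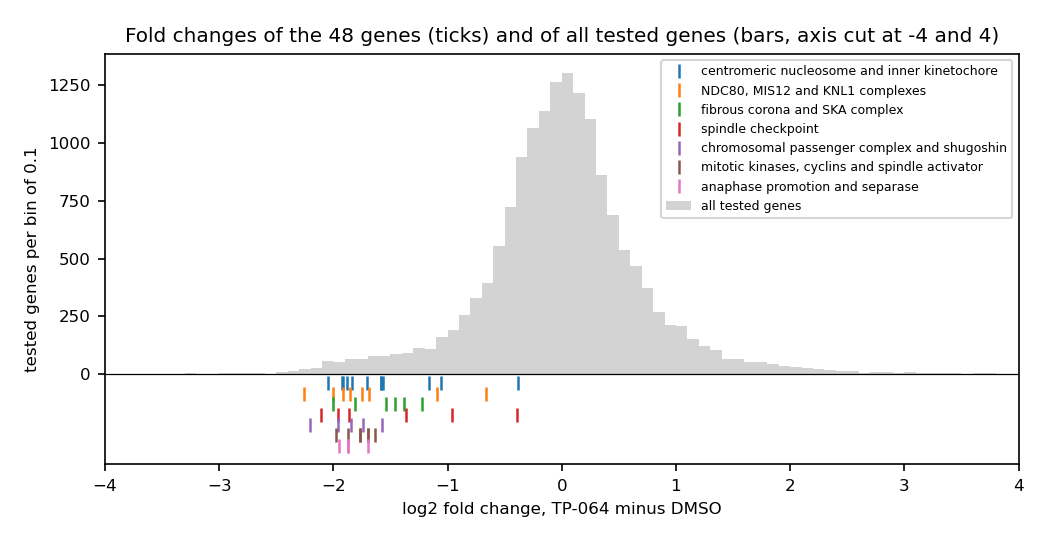
Histogram of the log2 fold change (TP-064 minus DMSO, horizontal axis) of the 16048 tested genes as grey bars, in genes per bin of 0.1 on the vertical axis, with a coloured tick below for each of the 48 genes, 1 row per group of genes. The ticks lie between -2.26 and -0.39, most of them in the left tail of the distribution, while the median of all tested genes is 0.01.

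Summed, the 48 genes took 0.24%, 0.253% and 0.241% of the normalized read counts of the listed genes in TP-064 replicates 1, 2 and 3, against 0.671%, 0.673% and 0.666% in DMSO replicates 1, 2 and 3. The median over the 48 genes of the log2 level minus the mean of the DMSO libraries was -1.79, -1.68 and -1.81 in TP-064 replicates 1, 2 and 3. Among the TP-064 libraries, replicate 2 had the highest value for 41 of the 48 genes. Without that library the median log2 fold change was -1.80, and without TP-064 replicate 3 it was -1.75. The median coefficient of variation between replicates over the 48 genes was 5.65% after TP-064 (1.69% to 14.1%), against 2.64% after DMSO (0.450% to 6.29%). The difference between these spreads was not tested.

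**Figure D2:**
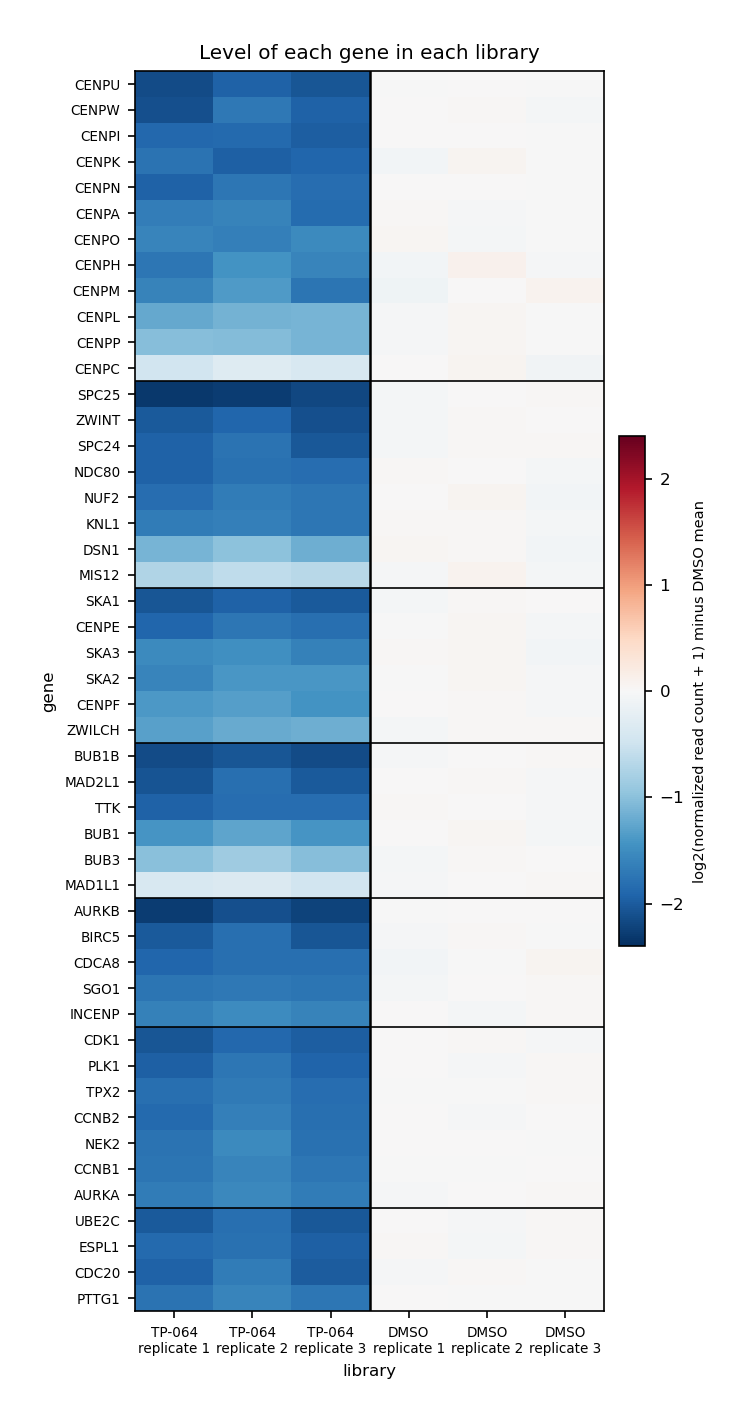
Level of each of the 48 genes (rows, in blocks by group of genes) in each library (columns, the 3 TP-064 libraries on the left and the 3 DMSO libraries on the right), as log2(normalized read count + 1) minus the mean of the DMSO libraries, with blue for lower. All rows are blue in the TP-064 libraries, palest for CENPC, MIS12, BUB3 and MAD1L1, and TP-064 replicate 2 is a shade paler than TP-064 replicates 1 and 3 in most rows.

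The promoters of these genes were read for shared elements. The genes were chosen by symbol as genes of mitosis, and the CHR is a known feature of such genes. A high share of CHR forms among them can follow from that choice and is not a result about TP-064. RefSeq promoter windows on GRCh38.p14, from 250 bases before to 50 bases after a gene's start, were matched by symbol for 38 of the 48 genes, 6 of which have more than 1 start. CENPH, CENPL, CENPM, KNL1, BUB3, TTK, BIRC5, AURKA, TPX2 and UBE2C were not matched. The letters searched on both strands were TTTGAA, the main form of the CHR element, TTCGAA, a variant form, and CCAAT, the box bound by the factor NF-Y. Other forms of the CHR element were not searched, so a gene without these letters may still hold one. Either CHR form lay within 50 bases of a start in 21 of the 38 genes (55.3%), against 5.01% of all 35116 promoter windows and 4.96% of the 10205 tested genes that could be matched. The main form did so in 18 of the 38 genes and in 4.62% of all windows, and the variant form in 4 of the 38 and 0.413%. CCAAT lay anywhere in the window in 28 of the 38 genes (73.7%), in 34.6% of all windows and in 43.3% of the matched tested genes. In CDCA8 a TTTGAA and a CCAAT share 1 base, and in PTTG1 a pair of CCAAT boxes share 2 bases. These are counts of letters, which do not show that a factor is bound.

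The stretches printed here run from 150 bases before to 50 bases after the RefSeq start, 5′ to 3′ on the gene's own strand, with both CHR forms and the NF-Y box in capitals wherever they lie on either strand. An NF-Y box that faces the other way appears as ATTGG. CCNB2 and PLK1 are shown as genes of mitotic entry, BUB1B and BUB1 as a pair of related checkpoint genes, SPC25 as the gene with the largest fall, CENPA as the centromeric histone, and MAD1L1 as a gene with one of the smallest falls.
CCNB2 (chr15:59104996-59105195, plus strand): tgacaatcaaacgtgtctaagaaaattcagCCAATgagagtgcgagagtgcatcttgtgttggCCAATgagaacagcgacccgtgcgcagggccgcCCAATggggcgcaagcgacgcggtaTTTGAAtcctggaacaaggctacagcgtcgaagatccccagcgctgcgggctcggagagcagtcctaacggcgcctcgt
PLK1 (chr16:23678739-23678938, plus strand): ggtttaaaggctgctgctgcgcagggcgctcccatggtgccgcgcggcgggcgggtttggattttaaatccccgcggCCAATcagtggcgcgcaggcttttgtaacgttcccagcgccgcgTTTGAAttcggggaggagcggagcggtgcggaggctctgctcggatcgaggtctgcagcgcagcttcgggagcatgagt
BUB1B (chr15:40160919-40161118, plus strand): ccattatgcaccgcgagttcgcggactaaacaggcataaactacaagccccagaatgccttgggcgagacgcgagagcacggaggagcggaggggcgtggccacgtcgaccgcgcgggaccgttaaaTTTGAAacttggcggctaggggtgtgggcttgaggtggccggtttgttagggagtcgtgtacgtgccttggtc
BUB1 (chr2:110678014-110678213, minus strand): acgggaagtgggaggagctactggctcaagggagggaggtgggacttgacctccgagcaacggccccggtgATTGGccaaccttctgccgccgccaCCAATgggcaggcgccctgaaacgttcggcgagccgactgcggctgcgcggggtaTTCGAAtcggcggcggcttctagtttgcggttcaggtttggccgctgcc
SPC25 (chr2:168890381-168890580, minus strand): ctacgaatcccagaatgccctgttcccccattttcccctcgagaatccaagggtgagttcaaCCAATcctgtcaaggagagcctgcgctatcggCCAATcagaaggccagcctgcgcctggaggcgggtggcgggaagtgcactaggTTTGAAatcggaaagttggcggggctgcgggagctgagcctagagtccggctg
CENPA (chr2:26785906-26786105, plus strand): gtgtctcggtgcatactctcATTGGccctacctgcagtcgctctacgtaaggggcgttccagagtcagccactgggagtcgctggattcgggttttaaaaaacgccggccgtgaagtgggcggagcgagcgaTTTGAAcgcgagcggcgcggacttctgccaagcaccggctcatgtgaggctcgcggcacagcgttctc
MAD1L1 (chr7:2232896-2233095, minus strand): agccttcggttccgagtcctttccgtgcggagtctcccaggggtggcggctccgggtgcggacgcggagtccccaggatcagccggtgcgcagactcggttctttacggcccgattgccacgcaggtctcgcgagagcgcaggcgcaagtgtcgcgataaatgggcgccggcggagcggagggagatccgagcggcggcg
CCNB2 carries a row of CCAAT boxes upstream of its CHR element, PLK1 and SPC25 carry both kinds of element, and BUB1B has TTTGAA and no CCAAT in the window. BUB1 has the variant form close to its start. The MAD1L1 window holds none of the 3 strings. That of CENPC, with the smallest fall and not printed, holds TTTGAA and CCAAT. Genes with large falls and neither searched CHR form near a start, such as AURKB, are not printed either.

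Among the 38 matched genes, 21 had a searched CHR form near a start. Their log2 fold changes were -2.26 to -1.36 with the median at -1.84. The 17 without either searched form there had a median of -1.70 (-2.20 to -0.39). The ranges overlap broadly. AURKB, CENPU, SPC24, CENPI and CENPK have no such letters near a start, and their log2 fold changes were -2.20 to -1.88. CDC20 holds TTTGAA at position -65 from the start, just outside the limit of 50 bases. CENPC, at -0.39, holds it on the opposite strand at -90, with CCAAT boxes at -129 and -43. MIS12, at -0.66, holds CCAAT boxes and neither searched CHR form. Outside the 48 genes, 97 of 485 tested genes with a CHR form near a start (20%) fell by at least 2-fold, against 509 of 9682 without (5.26%). That comparison is a description, with no test. Only the 48 genes were left out of it, and other genes of the cell cycle were not. The element and the kind of gene that carries it cannot be told apart here, and the cause of the fall was not tested.

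**Figure D3:**
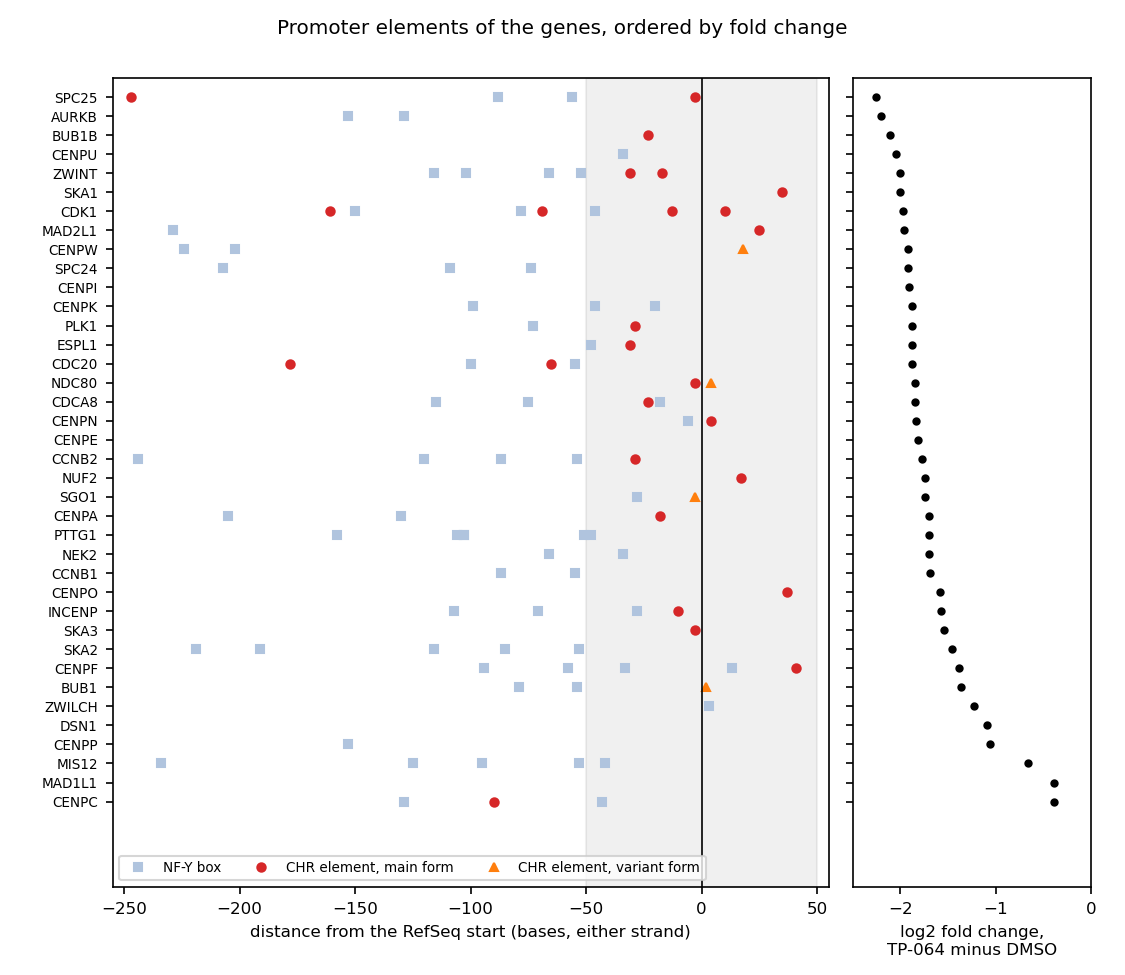
Position of NF-Y boxes (squares) and of the 2 searched forms of the CHR element (circles and triangles), in bases from the RefSeq start on the horizontal axis. The 38 matched genes are ordered from the largest fall at the top, with the starts of a gene that has several drawn on 1 row. The shaded band marks 50 bases on each side of the start, where 21 of the 38 genes hold a CHR form, and the right panel gives each gene's log2 fold change (TP-064 minus DMSO).

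The centromeric nucleosome and the inner kinetochore were represented by 12 genes, all lower, with a median log2 fold change of -1.64. Here and in the groups that follow, counts of lower genes stand against 33.3% of all tested genes called lower. Remarks on groups without overlap stand against 35.2% of all tested genes with each TP-064 value below each DMSO value. CENPA, the histone H3 variant that marks centromeres, lies on chromosome 2 from 26764289 to 26801067 (plus strand) in GRCh38. It had normalized read counts of 622, 645 and 546 in TP-064 libraries, against 2015, 1929 and 1948 in DMSO libraries. The groups did not overlap, and its log2 fold change was -1.70 (SE 0.060, adjusted p = 2.63e-12 by limma). CENPC, the protein that links CENP-A nucleosomes to the outer kinetochore, lies on chromosome 4 from 67468748 to 67545606 (minus strand). CENPC had normalized read counts of 2205, 2451 and 2333 in TP-064 libraries, against 3069.9, 3196 and 2873 in DMSO libraries, also without overlap. Its log2 fold change of -0.39 (SE 0.049, adjusted p = 5.03e-06 by limma) was the smallest of the 48. Without DMSO replicate 3 it was -0.43, and the smallest fall of the 48 was then -0.38.

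CENPU, a subunit of the CENP-O class complex that recruits PLK1 to kinetochores, had the largest fall of the inner kinetochore, at -2.05 (SE 0.046, adjusted p = 3.06e-14 by limma). It had normalized read counts of 1589, 1825 and 1705 in TP-064 libraries, against 6977, 7139 and 7033 in DMSO libraries. CENPO and CENPP belong to the same complex and had log2 fold changes nearer to 0. CENPO had normalized read counts of 807, 775 and 839.9 in TP-064 libraries, against 2518, 2357 and 2394 in DMSO libraries, a log2 fold change of -1.58, and CENPP had normalized read counts of 711, 701 and 663 in TP-064 libraries, against 1415, 1493 and 1426 in DMSO libraries, a log2 fold change of -1.06. CENPP fell by 0.94 on the log2 scale, under 2-fold, when libraries were scaled to their totals alone. Exons of listed genes on the opposite strand cover 31.4% of the exon length of CENPO (ADCY3 and PTRHD1) and 39.5% of that of CENPP (IPPK and NOL8). How the counting treated strand is not stated in the labels or the file header, so both values are uncertain. The same holds for CENPN and CENPU, at 12.8% and 11.7%. CENPA overlaps SLC35F6 on its own strand.

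The subunits of the CENP-H, I, K and M group, which connects CENPC to the rest of the inner layer, all fell. CENPH had normalized read counts of 788, 963 and 873 in TP-064 libraries, against 2488, 2804 and 2565 in DMSO libraries, and CENPI, on the X chromosome, had normalized read counts of 847, 861 and 800.3 in TP-064 libraries, against 3149.8, 3182 and 3108 in DMSO libraries. Their log2 fold changes were -1.58 and -1.91. CENPK had normalized read counts of 243, 214 and 223 in TP-064 libraries, against 801, 879 and 826 in DMSO libraries. Per kilobase of annotated exon it had the lowest level of the 48 genes after TP-064, at 52.6 normalized read counts. CENPK changed by -1.88 and CENPM by -1.57 on the log2 scale. CENPM, with normalized read counts of 887, 1049 and 796 in TP-064 libraries, against 2511, 2711 and 2846 in DMSO libraries, had the widest spread of all 48 genes among the TP-064 libraries, at a coefficient of variation of 14.1%.

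CENPN and CENPL form a dimer, of which CENPN reads the CENP-A nucleosome directly. CENPN had normalized read counts of 547, 634 and 590.0 in TP-064 libraries, against 2115, 2107 and 2096 in DMSO libraries, and CENPL had normalized read counts of 1349.6, 1430.3 and 1447 in TP-064 libraries, against 3067, 3254 and 3119 in DMSO libraries. The log2 fold changes were -1.84 and -1.16. CENPW, a small histone-fold protein that pairs with CENPT, changed by -1.92 (SE 0.080, adjusted p = 1.92e-11 by limma), with normalized read counts of 328, 431 and 368 in TP-064 libraries, against 1434, 1445 and 1376 in DMSO libraries.

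The outer kinetochore genes of the NDC80, MIS12 and KNL1 complexes fell in 8 of 8 cases, with a median log2 fold change of -1.80. NDC80, NUF2, SPC24 and SPC25 build the rod that binds microtubules, with NDC80 and NUF2 at the microtubule end and SPC24 and SPC25 at the chromosome end. SPC25, on chromosome 2 from 168834132 to 168913371 (minus strand), had normalized read counts of 226, 232 and 249 in TP-064 libraries, against 1094, 1144 and 1152 in DMSO libraries. The TP-064 libraries held 20.9% of the mean of the DMSO libraries, and the log2 fold change of -2.26 (SE 0.063, adjusted p = 2.29e-13 by limma) was the largest fall of the 48. SPC24 had normalized read counts of 1128, 1259 and 1060.2 in TP-064 libraries, against 4169, 4384 and 4422 in DMSO libraries. NDC80 itself had normalized read counts of 645, 710.2 and 698 in TP-064 libraries, against 2532, 2484 and 2390.0 in DMSO libraries, and NUF2 had normalized read counts of 1178, 1306 and 1255 in TP-064 libraries, against 4190.1, 4380.2 and 3969 in DMSO libraries. The log2 fold changes of SPC24, NDC80 and NUF2 were -1.91, -1.85 and -1.74, with no overlap between the groups in any of them.

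DSN1 and MIS12, subunits of the complex that joins the rod to the centromere, fell least in this layer. MIS12, on chromosome 17 from 5486285 to 5490814 (plus strand), had normalized read counts of 751, 810.1 and 777 in TP-064 libraries, against 1205, 1308 and 1192 in DMSO libraries, a log2 fold change of -0.66 (SE 0.054, adjusted p = 4.18e-08 by limma). DSN1 had normalized read counts of 1435, 1571 and 1378 in TP-064 libraries, against 3207, 3162 and 2962 in DMSO libraries, a log2 fold change of -1.09. It fell by 0.97 on the log2 scale when libraries were scaled to their totals alone. KNL1, the scaffold on which BUB1 and its partners gather, had normalized read counts of 2156, 2211 and 2066 in TP-064 libraries, against 7038, 6989.8 and 6658 in DMSO libraries. ZWINT, which binds KNL1, had normalized read counts of 2259, 2440.2 and 2110.3 in TP-064 libraries, against 8848, 9299 and 9186 in DMSO libraries. Their log2 fold changes were -1.68 and -2.01.

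The corona and the SKA complex were represented by 6 genes, all lower, with a median log2 fold change of -1.50. CENPE, a kinesin that carries chromosomes along microtubules, had normalized read counts of 2227, 2486 and 2376 in TP-064 libraries, against 8266, 8584 and 8024 in DMSO libraries, a log2 fold change of -1.81. CENPF, a large coiled-coil protein of the corona, had the highest counts of the 48 genes. It had normalized read counts of 18772, 19416 and 17920.5 in TP-064 libraries, against 48795, 49771 and 47498 in DMSO libraries, and its log2 fold change of -1.38 (SE 0.038, adjusted p = 1.82e-13 by limma) was smaller than that of CENPE. ZWILCH, a subunit of the complex that loads dynein on kinetochores, changed by -1.23, with normalized read counts of 1327, 1411 and 1453 in TP-064 libraries, against 3156, 3318 and 3332 in DMSO libraries. Opposite-strand exons, among them those of RPL4 with a mean of 140907 normalized read counts over the 6 libraries, cover 10.9% of its exon length.

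SKA1, SKA2 and SKA3 form a complex that tracks microtubule ends with the NDC80 rod. SKA1 had normalized read counts of 661, 710.2 and 675 in TP-064 libraries, against 2656, 2802 and 2766 in DMSO libraries, and its log2 fold change was -2.01. SKA2 and SKA3 changed by -1.46 and -1.54 on the same scale. SKA2 had normalized read counts of 1240.3, 1405 and 1399 in TP-064 libraries, against 3659.6, 3801 and 3638 in DMSO libraries, and SKA3 had normalized read counts of 604, 628 and 565 in TP-064 libraries, against 1768, 1808 and 1660.0 in DMSO libraries.

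**Figure D4:**
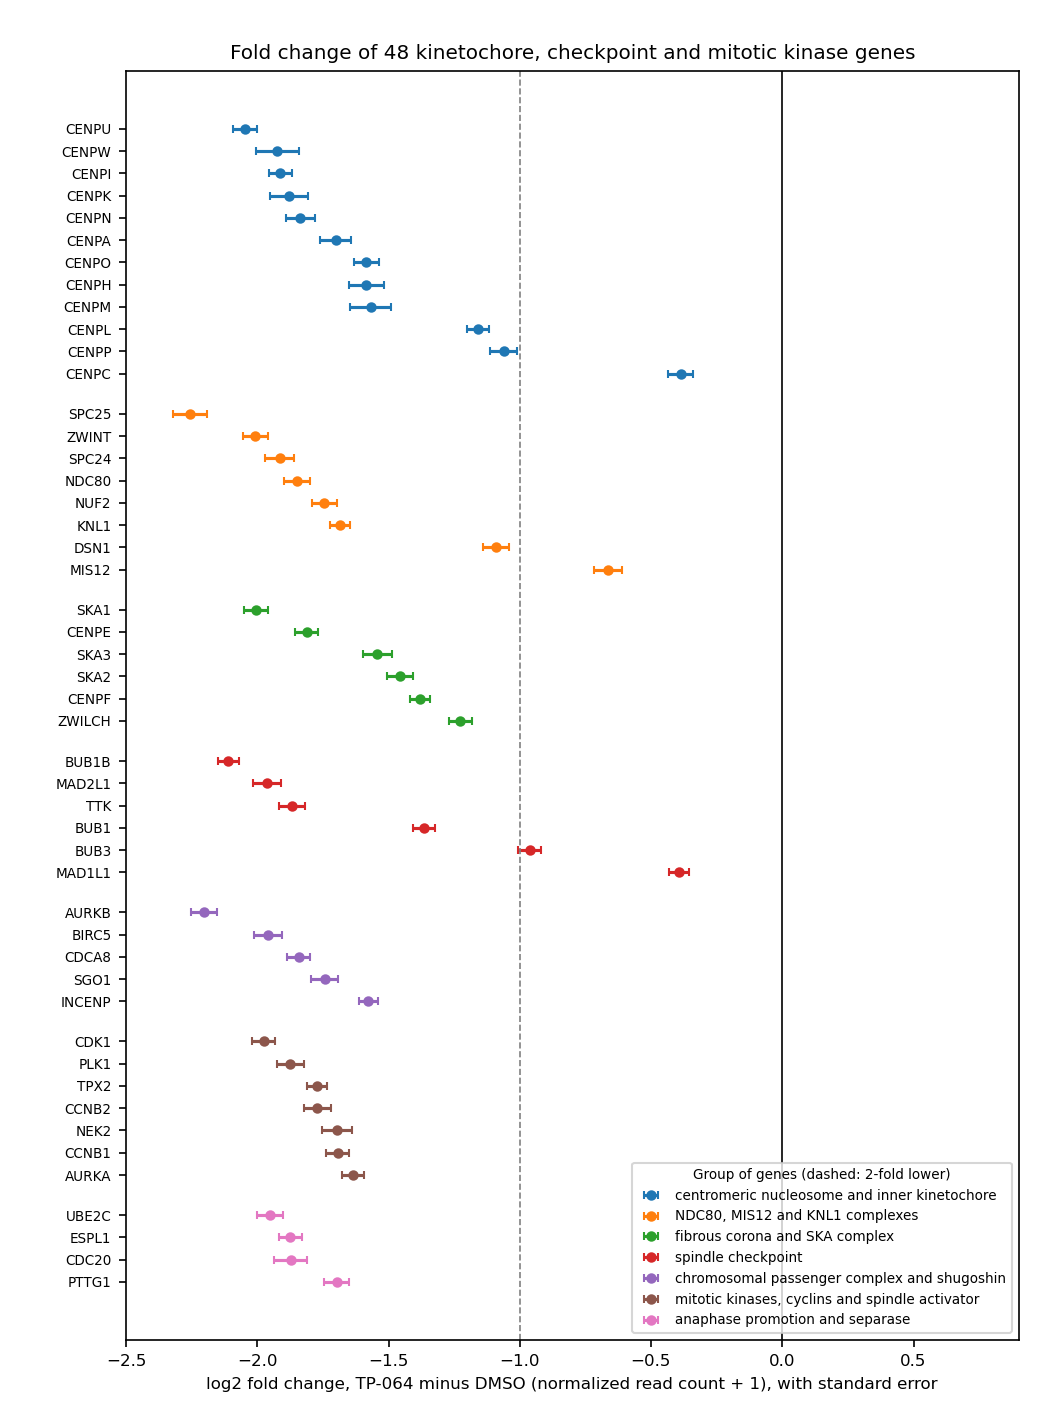
Log2 fold change (TP-064 minus DMSO, horizontal axis) of each of the 48 genes with its standard error, coloured by group of genes and ordered within each group. The dashed line marks a fall of 2-fold, which CENPC, MIS12, BUB3 and MAD1L1 do not reach, and SPC25 lies farthest to the left at -2.26.

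The spindle checkpoint genes fell in 6 of 6 cases (median log2 fold change -1.62) and held some of the largest and smallest falls. BUB1B (the protein BubR1, part of the complex that inhibits CDC20) lies on chromosome 15 from 40161023 to 40221136 (plus strand). BUB1B had normalized read counts of 1521, 1629 and 1524 in TP-064 libraries, against 6604, 6730.4 and 6853 in DMSO libraries, a log2 fold change of -2.11 (SE 0.039, adjusted p = 9.10e-15 by limma). BUB1, the kinase that marks centromeric chromatin, had normalized read counts of 6645, 7411 and 6641 in TP-064 libraries, against 17743, 18237 and 17251 in DMSO libraries, a log2 fold change of -1.36 (SE 0.043, adjusted p = 8.42e-13 by limma). BUB3, which brings both to KNL1, had normalized read counts of 7742, 8623 and 7706 in TP-064 libraries, against 15101, 15998 and 15739 in DMSO libraries. Its log2 fold change was -0.96, and it passed 2-fold, at -1.01, without TP-064 replicate 2.

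MAD2L1 (Mad2), the protein that changes shape at unattached kinetochores and captures CDC20, had normalized read counts of 2148, 2579 and 2228 in TP-064 libraries, against 9066, 9170.0 and 8801 in DMSO libraries, a log2 fold change of -1.96 (SE 0.055, adjusted p = 2.02e-13 by limma). MAD1L1 (Mad1), the template on which Mad2 is converted, lies on chromosome 7 from 1815793 to 2233243 (minus strand) and had normalized read counts of 3559, 3639 and 3385 in TP-064 libraries, against 4521, 4636 and 4753 in DMSO libraries. Its log2 fold change of -0.39 (SE 0.038, adjusted p = 3.25e-07 by limma) was close to that of CENPC. TTK (the kinase Mps1, which starts the signal) had normalized read counts of 475, 509 and 512 in TP-064 libraries, against 1847, 1838 and 1780.1 in DMSO libraries, a log2 fold change of -1.87.

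The chromosomal passenger complex corrects wrong attachments, and its 4 subunits fell, as did SGO1, the shugoshin that protects centromeric cohesion. AURKB, its kinase, lies on chromosome 17 from 8204733 to 8210600 (minus strand) and had normalized read counts of 718, 811 and 744 in TP-064 libraries, against 3452, 3491 and 3526 in DMSO libraries. The TP-064 libraries held 21.7% of the DMSO mean, a log2 fold change of -2.20 (SE 0.048, adjusted p = 2.59e-14 by limma). INCENP, the scaffold that activates the kinase, had normalized read counts of 4466, 4784 and 4506 in TP-064 libraries, against 13720.5, 13289 and 14008 in DMSO libraries, a log2 fold change of -1.58. BIRC5 (survivin) had normalized read counts of 3384, 3929.8 and 3278 in TP-064 libraries, against 13474, 13977 and 13626 in DMSO libraries, and CDCA8 (borealin) had normalized read counts of 1393, 1501 and 1495 in TP-064 libraries, against 5038, 5236 and 5465 in DMSO libraries. Their log2 fold changes were -1.96 and -1.84. SGO1 had normalized read counts of 424, 436 and 423 in TP-064 libraries, against 1388, 1447 and 1469.7 in DMSO libraries, a log2 fold change of -1.74, and exons of its antisense gene cover 17.7% of its exon length.

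The kinases and cyclins of mitotic entry fell in 7 of 7 cases, by log2 fold changes of -1.98 to -1.64 around a median of -1.77. CDK1, the kinase that starts mitosis, lies on chromosome 10 from 60778331 to 60794852 (plus strand) and had normalized read counts of 1644, 1843 and 1732 in TP-064 libraries, against 6875, 6951 and 6689 in DMSO libraries, a log2 fold change of -1.98 (SE 0.043, adjusted p = 2.46e-14 by limma). CCNB1 and CCNB2 encode its B-type cyclins. CCNB1 had normalized read counts of 2486, 2800.2 and 2539.9 in TP-064 libraries, against 8419.6, 8349.8 and 8512 in DMSO libraries, a log2 fold change of -1.69. CCNB2 had normalized read counts of 1486, 1732 and 1542 in TP-064 libraries, against 5423, 5321 and 5469 in DMSO libraries, a log2 fold change of -1.77. PLK1, the polo kinase of centrosomes, kinetochores and cytokinesis, lies on chromosome 16 from 23677656 to 23690367 (plus strand). PLK1 had normalized read counts of 1494, 1745 and 1536 in TP-064 libraries, against 5871, 5704 and 5903 in DMSO libraries, a log2 fold change of -1.87 (SE 0.051, adjusted p = 1.70e-13 by limma). AURKA, the Aurora kinase of centrosomes, had normalized read counts of 1909.8, 2096 and 1914 in TP-064 libraries, against 6031, 6152 and 6219 in DMSO libraries, and TPX2, which activates it on the spindle, had normalized read counts of 4482, 4839 and 4424 in TP-064 libraries, against 15545, 15469.9 and 15869 in DMSO libraries. The log2 fold changes were -1.64 and -1.77. NEK2, a kinase that separates centrosomes, changed by -1.70, with normalized read counts of 1316, 1552 and 1299 in TP-064 libraries, against 4493, 4531 and 4440.4 in DMSO libraries.

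The genes of anaphase fell as well, 4 of 4, and their median on the log2 scale was -1.87. CDC20, the activator of the anaphase-promoting complex and the target of the checkpoint, had normalized read counts of 2003, 2419 and 1939.7 in TP-064 libraries, against 7607, 7933 and 7667 in DMSO libraries, a log2 fold change of -1.87 (SE 0.063, adjusted p = 1.61e-12 by limma). UBE2C, the ubiquitin-conjugating enzyme that works with that complex, had the highest level of the 48 genes per kilobase of annotated exon. That level was 1896 normalized read counts per kilobase after TP-064 and 7314 after DMSO. It had normalized read counts of 2337, 2672 and 2306 in TP-064 libraries, against 9422, 9258 and 9535 in DMSO libraries, a log2 fold change of -1.95. PTTG1 (securin) holds separase inactive, and ESPL1 (separase) cuts cohesin once securin is degraded. PTTG1 had normalized read counts of 1635, 1867 and 1672 in TP-064 libraries, against 5624, 5570.2 and 5571 in DMSO libraries, and ESPL1 had normalized read counts of 2773, 2907 and 2599.8 in TP-064 libraries, against 10274, 9739 and 10321 in DMSO libraries, with log2 fold changes of -1.70 and -1.87. For 13 of the 48 genes, among them PTTG1, UBE2C, AURKA and CENPU, GENCODE names at least 1 copy elsewhere in the genome, 21 copies in all. Of these copies only UBE2CP2 has a row, with a mean of 5.87 normalized read counts over the 6 libraries. Reads shared with the copies were not measured, so how far they affect these counts is uncertain.

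Ratios between the transcripts of binding partners were compared across the groups. The shift of a ratio is close to the difference between the log2 fold changes of its genes given above. It restates those values and is no separate evidence, and the pairs were chosen with earlier results of these data known. For 19 pairs of genes whose proteins bind each other, the log2 ratio of normalized read counts per kilobase of exon was taken within each library, which does not depend on how libraries are scaled to each other. The groups did not overlap in 17 of the 19 pairs, and in 6 pairs the mean ratio moved by at least 0.5 on the log2 scale. The share of non-overlapping ratios among other pairs of genes was not computed, and groups did not overlap in 35.2% (lower) and 33.9% (higher) of single tested genes, so nothing particular to binding partners is read from the count of 17. With 3 libraries against 3, the exact two-sided permutation test cannot give a p under 0.1, which is the value of each of the 17 pairs, with a Benjamini-Hochberg adjusted p of 0.112 over the 19.

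The largest shift was in MAD2L1 over MAD1L1. The log2 ratio was -0.40, -0.17 and -0.27 in the TP-064 libraries, against 1.33, 1.32 and 1.22 in the DMSO libraries. The mean moved by -1.57 (SE 0.076). The sign of each ratio depends on the exon lengths used, which join all annotated exons of a gene. Which partner was the more abundant is therefore uncertain, while the shift between the groups does not depend on these lengths. CENPA over CENPC was at 0.29, 0.19 and 0.02 in the TP-064 libraries, against 1.51, 1.39 and 1.56 in the DMSO libraries, a shift of -1.32 (SE 0.093). BUB1B over BUB3 was at -1.46, -1.51 and -1.45 in the TP-064 libraries, against -0.30, -0.36 and -0.31 in the DMSO libraries, a shift of -1.15 (SE 0.027). In each of these pairs the gene on top fell by more than 2-fold and its partner by less.

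CENPN over CENPL shifted by -0.68 (SE 0.049) and AURKB over INCENP by -0.63 (SE 0.030). CENPO over CENPP, with the opposite-strand exons named above, shifted by -0.52 (SE 0.078). Shifts in the other direction were seen for SKA3 over SKA1, at 0.46 (SE 0.058), CENPH over CENPK, at 0.30 (SE 0.14), and CCNB1 over CDK1, at 0.28 (SE 0.029). Partners with close ratios in both groups included NUF2 and NDC80, whose log2 ratio was 0.97, 0.98 and 0.95 in the TP-064 libraries, against 0.83, 0.92 and 0.83 in the DMSO libraries, a shift of 0.11 (SE 0.031). The groups overlapped for CDC20 over MAD2L1, with a shift of 0.09 (SE 0.038), and for BIRC5 over CDCA8, with a shift of -0.12 (SE 0.081), at an exact permutation p of 0.2 in both.

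**Figure D5:**
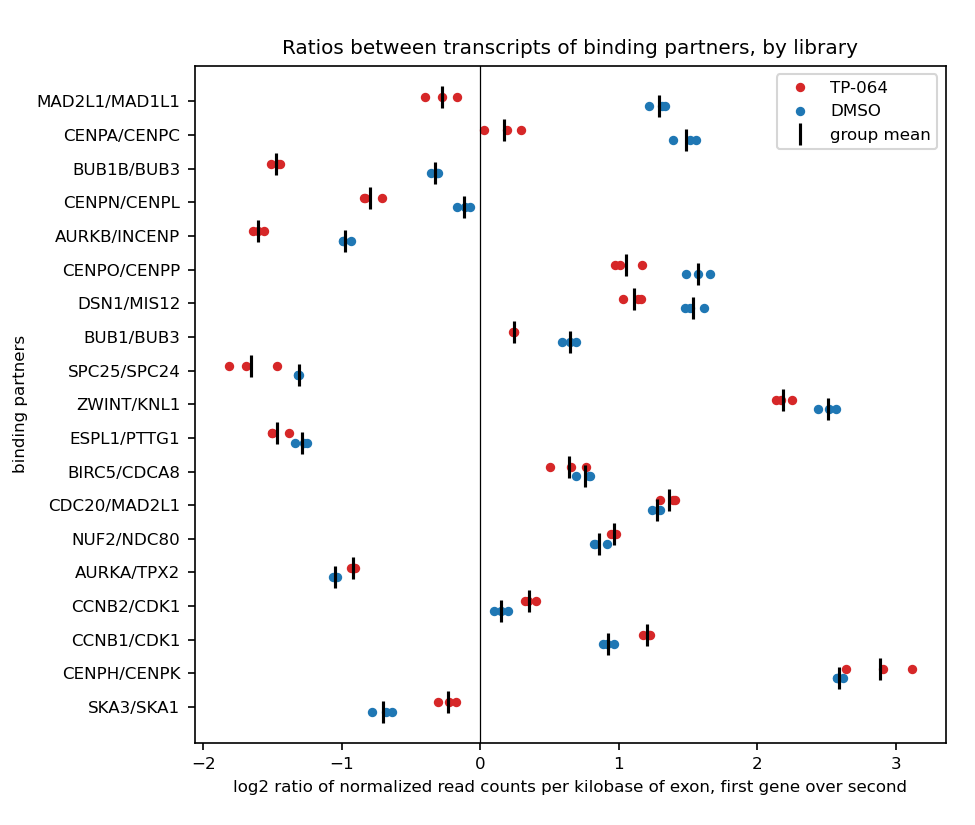
Log2 ratio of normalized read counts per kilobase of exon, first gene over second (horizontal axis), for 19 pairs of binding partners (rows), with 1 point per library in red for TP-064 and blue for DMSO and a black bar at each group mean. MAD2L1/MAD1L1, CENPA/CENPC and BUB1B/BUB3 lie at the top with the largest shifts to the left after TP-064, and SKA3/SKA1 at the bottom shifts to the right.

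Of all tested genes, 33.3% were called lower and 31.9% higher, and 6.56% fell by at least 2-fold. With scaling to library totals alone, 4158 of the 16048 tested genes were called lower and 6653 higher. Of 64 other genes of the same pathway, 54 fell, 5 rose and 5 did not pass the test. Their median log2 fold change was -0.53, and 22 fell by at least 2-fold. The 5 that rose came to 3 without TP-064 replicate 2, 3 without DMSO replicate 1 and 2 without DMSO replicate 3. Among 5 centromere assembly factors, all 5 fell, and 4 fell with scaling to library totals. HJURP, the chaperone that deposits CENP-A, changed by -2.01 (SE 0.054, adjusted p = 1.58e-13 by limma), with normalized read counts of 991, 1091 and 916 in TP-064 libraries, against 3951, 4042 and 4038 in DMSO libraries. OIP5 (Mis18 beta) changed by -1.89, and OIP5-AS1, with a mean of 27637 normalized read counts over the 6 libraries, covers 38% of its exon length from the opposite strand. Of 5 further inner kinetochore subunits, 4 fell and 1 did not pass, with CENPQ at -1.08 and ITGB3BP (CENP-R) at -1.22 on the log2 scale. Of 8 further outer kinetochore and corona genes, 7 fell and 1 rose. KNTC1 (Rod), the partner of ZWILCH, changed by -1.51 and SPAG5 (astrin) by -1.69. BOD1, which restrains a phosphatase at kinetochores, rose by 0.12 (limma adjusted p = 0.0356). It lost that call in DESeq2 and when TP-064 replicate 1, TP-064 replicate 2, DMSO replicate 1 or DMSO replicate 3 was left out, and stood at 0.24 with scaling to library totals. All 4 further checkpoint and centromere regulators fell (3 with scaling to library totals), with TRIP13, the ATPase that recycles Mad2, at -1.90 and HASPIN, the histone H3 kinase of centromeres, at -1.87.

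The main counts of the next 3 lists stand against 33.3% lower and 31.9% higher calls over all tested genes. Their counts with scaling to library totals stand against 4158 lower and 6653 higher calls among the 16048 tested genes. Of 12 genes that control mitotic entry all 12 fell, and their median log2 fold change was -1.61. With scaling to library totals 11 fell and 1 did not pass. CCNA2 (cyclin A) changed by -1.94 (SE 0.042, adjusted p = 2.46e-14 by limma), with normalized read counts of 2740.2, 3077 and 2812 in TP-064 libraries, against 10896, 11224 and 10976 in DMSO libraries, and the phosphatase CDC25A, which activates cyclin-dependent kinases, by -2.06. In the anaphase-promoting complex with its enzymes and regulators, 11 of 17 genes fell, 2 rose and 4 did not pass the test, with a median of -0.20. With scaling to library totals alone 7 fell, 2 rose and 8 did not pass, and the median was -0.08. FBXO5 (EMI1), its inhibitor, fell with a log2 fold change of -1.55, and UBE2S, which extends ubiquitin chains with it, with -1.07. CDC16, a core subunit, rose by 0.36, with normalized read counts of 2369.6, 2564 and 2523 in TP-064 libraries, against 1923, 1974 and 1908 in DMSO libraries. The phosphatase subunits that oppose mitotic kinases had a median log2 fold change of -0.29, with 11 of 13 lower, 2 higher and none at least 2-fold lower. With scaling to library totals 9 fell, 2 rose and 2 did not pass. PPP1CA and PPP1CB, catalytic subunits of protein phosphatase 1, changed by -0.89 and -0.75, and opposite-strand exons of CARNS1, RAD9A and TBC1D10C cover 26.9% of the exon length of PPP1CA. PPP2R5B, a regulatory subunit of protein phosphatase 2A, rose by 1.35 (SE 0.095, adjusted p = 8.25e-09 by limma), with normalized read counts of 766, 687 and 701 in TP-064 libraries, against 314, 236 and 299.6 in DMSO libraries.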

How the data were processed

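Per the labels' protocols, polyadenylated RNA purified on columns went into strand-preserving libraries. TopHat2 2.0.10, HTSeq 0.6.0 and DESeq 1.18.0 and the hg38 build are named in the submitters' processing notes. The annotation release, the strand setting and any row filters are not stated in the labels. The authors deposited 1 table of 18278 genes whose signal is a gene count divided by a size factor of the sample, called a normalized read count here. Every value was a whole multiple of its column's smallest step within 0.001, and those reads were used for count tests. For replicate 2 of both groups that step is close to 1, which by itself does not separate it from rounding, so depths and count tests carry that limit. Depths are in the opening and bound counting error only.

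Symbols, coordinates and exon lengths come from GENCODE release 29 (GRCh38), matched for 18214 of 18278 genes. An exon length joins all annotated exons of a gene, so levels per kilobase compare different genes only roughly. limma 3.58.1 in R 4.3.3, with trend, was fitted on log2 values after adding a pseudocount of 1 for the 16048 genes with a mean of at least 10, with Benjamini-Hochberg adjustment over all of them. The design named edgeR for raw counts and limma for normalized values, and the table held the second kind. Alternatives were TMM and library size scaling, edgeR 4.0.16 and DESeq2 1.42.0 on the recovered reads, other filters and pseudocounts, a replicate block and each replicate left out. The limma procedure was also run on simulated counts in which few genes changed, as many up as down. Most genes tested here were called, so that run does not check the scaling or the calls of these data. SEs of fold changes are the moderated values of limma, whose spread is partly shared over all genes, and SEs of ratio shifts come from the 3 libraries of each group. The genes, the lists, the pairs and the promoter elements were chosen with earlier results of these data known. All 48 genes may be named, and from each list of other pathway genes the text names at most 2 called genes, lowest p first, from the direction with more calls, and 1 from the opposite direction. No sample was left out of the main comparison. A listed marker gene is not reported here.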

Additional observations from a re-analysis of the deposited data

How the results depend on the processing

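Under the 15 alternatives all 48 genes stayed called as lower, and none was called higher by limma, edgeR or DESeq2. The count at least 2-fold lower ran from 42 (library size scaling, where CENPP and DSN1 fell by less) to 45 (without TP-064 replicate 2, where BUB3 passed), and from 44 to 45 with 1 replicate left out. Library size scaling moved the median of all genes to 0.13 and that of the 48 genes to -1.64, and 61.5% of calls over all genes were then higher, at 6653 higher and 4158 lower, against 48.9% in the main comparison (5112 and 5337). Of the other pathway genes, the 5 called higher came to 2 to 4 with 1 replicate left out. They came to 3 without DMSO replicate 1, 2 without DMSO replicate 3 and 3 without TP-064 replicate 2. The 54 called lower came to 45 to 55 over the alternatives. Over all genes, lower calls ran from 4158 to 5430 and higher calls from 4641 to 6653. No pairing by replicate number was visible, since same-numbered deviations correlated at -0.09, 0.07 and -0.08 and the others at -0.11 to 0.15. Whether samples were paired when grown is not stated in the labels, and these correlations cannot show it. With the replicate block 48 of the 48 genes were lower, 44 of them at least 2-fold, and of the other pathway genes 53 were lower and 5 higher. The 3 libraries per group limit the precision of every fold change, and no test for outlying samples was run.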
